A study of Mus musculus with 36 samples.

Results

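The 8 genes described here are transcripts by which mature neutrophils are recognised in blood: Cxcr2, Csf3r, Fpr1, Fpr2, Il1r2, S100a8, S100a9 and Retnlg. They were taken by gene name from the non-control probes of the array, where they are 8 of 31093 gene names, and 1 probe was found for each. All 8 probes were well above background on all 36 arrays and saturated on none of them, and all 8 genes were among the 15077 that passed the filters and were tested.

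Neutrophils are made in the bone marrow, lay down their primary and then their secondary granules while still immature, and switch on the receptors for chemokines and formyl peptides late, shortly before they enter the blood. Cxcr2 is the receptor for the CXC chemokines that draw neutrophils out of the marrow and into tissue, and Csf3r is the receptor for G-CSF, the cytokine that drives their production. Fpr1 and Fpr2 sense formylated peptides from bacteria and mitochondria, Il1r2 is a decoy receptor that binds interleukin-1 without signalling, S100a8 and S100a9 together form calprotectin, an abundant cytosolic protein of the neutrophil, and Retnlg is a secreted resistin-like protein made by myeloid cells.

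Blood was drawn from the heart of male C57BL/6J mice, aged 8 to 10 weeks at exposure, 7 days after whole-body irradiation or sham irradiation, with 6 mice in each of 6 groups. Control mice were sham-irradiated and X-rays mice received 3 Gy of x-rays. Mice of the 5%, 15% and 25% mixed field groups received a total of 3 Gy, of which neutrons gave 0.15, 0.45 and 0.75 Gy and x-rays most of the rest, with a small photon dose from the neutron source. Mice of the 83% neutron group, named for 100% neutrons in the sample titles, received 0.75 Gy of neutrons from the same source, along with its small photon dose. RNA came from whole blood, with globin transcripts reduced, so that fewer neutrophils and less RNA per neutrophil cannot be told apart in any value below. Values are log2 intensities after subtraction of each array's median, so a level of 0 is the median probe of that array. Each array had 15569 to 21294 probes well above background. Arrays were scanned in 4 sessions: 5 Control and 5 X-rays arrays in session 1, 5 arrays each of the 5% and 15% mixed field in session 2, all 12 arrays of the 25% mixed field and 83% neutron groups in session 3, and 1 array each of Control, X-rays, 5% and 15% in session 4. The 25% and 83% groups therefore cannot be told apart from session 3 when they are set against controls or X-rays.

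What each value measures is fixed by a probe of 60 bases, and the probes of the related members are shown because their readings are compared below. S100a8 and S100a9 lie side by side on chromosome 3, as do Fpr1 and Fpr2 on chromosome 17, but the longest run of bases that the probes of either pair share is 6. On build mm9 the S100a8 probe lies at chr3:90473778-90473837 on the plus strand, the S100a9 probe at chr3:90496573-90496632 on the minus strand, the Fpr1 probe at chr17:18013609-18013668 on the minus strand and the Fpr2 probe at chr17:18030540-18030599 on the plus strand. Their sequences, the first 30 bases alone for S100a9, were as follows.
S100a8: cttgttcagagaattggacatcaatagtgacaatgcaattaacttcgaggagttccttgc
S100a9: gtctaaagggaatggcttactcaatggcct
Fpr1: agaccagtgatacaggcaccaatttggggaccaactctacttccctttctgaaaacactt
Fpr2: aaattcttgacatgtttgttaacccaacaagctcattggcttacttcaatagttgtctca

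The Csf3r probe is the exception among the 8. The array's annotation places it on mm9 chromosome 19, at chr19:60157892-60157951, whereas RefSeq has the Csf3r gene on chromosome 4. The probes of the other 7 members lie on the chromosome of their gene. Of 27951 probes with a position and a gene found in RefSeq, 907 (3.24%) were placed on another chromosome than their gene. The last 30 bases of the Csf3r probe are identical to those of the probe for TC1653005, an expressed-sequence cluster annotated at chr4:145718198-145718257, and they resemble the start of B1, a short repeat with a very large number of copies in the mouse genome. The probe for Mtif2, a mitochondrial translation initiation factor, at chr11:29445083-29445142, ends in related bases. The last 30 bases of the 3 probes are shown with the run shared with Csf3r in capitals.
Csf3r: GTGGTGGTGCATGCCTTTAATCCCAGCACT
TC1653005: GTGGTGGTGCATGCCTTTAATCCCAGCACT
Mtif2: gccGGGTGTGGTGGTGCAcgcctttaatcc
Which transcripts the Csf3r probe bound was not tested, and its values are given below as those of the probe.

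The promoters of S100a8 and S100a9 are shown because the genes' values moved together across mice, with bases in capitals where a motif of a myeloid factor or a TATA box was found on either strand. Motifs searched were TTNNGNAA for C/EBP factors, GAGGAA for PU.1 and TATAAA for the TATA box. The 250 bases before the start of S100a8 (RefSeq, GRCm38.p6, chr3:90668821-90669070, plus strand) held 1 C/EBP match, 2 PU.1 matches and 1 TATA box, the last directly adjoining a PU.1 match. Those of S100a9 (chr3:90695722-90695971, minus strand) held 2 C/EBP matches and neither of the others.
S100a8: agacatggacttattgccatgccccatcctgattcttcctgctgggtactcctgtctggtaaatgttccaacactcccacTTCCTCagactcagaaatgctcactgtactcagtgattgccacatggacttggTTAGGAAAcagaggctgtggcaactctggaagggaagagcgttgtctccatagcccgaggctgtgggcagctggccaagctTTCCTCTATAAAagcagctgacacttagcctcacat
S100a9: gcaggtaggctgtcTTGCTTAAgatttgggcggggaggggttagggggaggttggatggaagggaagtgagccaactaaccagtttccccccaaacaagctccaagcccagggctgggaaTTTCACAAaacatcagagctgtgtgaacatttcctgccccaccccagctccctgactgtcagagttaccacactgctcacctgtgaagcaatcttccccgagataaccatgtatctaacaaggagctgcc
Over all 8 members, 5 promoters held a C/EBP match, 4 a PU.1 match and 3 a TATAAA match, against 36.8%, 23.3% and 12.4% of 32851 RefSeq promoters of the same length. Relative to the start of the gene, the TATAAA match began at -30 in S100a8, -227 in Fpr1 and -130 in Fpr2. Il1r2 held none of the 3 motifs in this window.

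In blood taken 7 days after exposure, no change in 7 of the 8 members passed the test. None of Cxcr2, Fpr1, Fpr2, Il1r2, S100a8, S100a9 and Retnlg was called in any of the 5 exposures against controls (p below 0.001 and Benjamini-Hochberg adjusted p below 0.05 by limma). The Csf3r probe was called lower at 15%, 25% and 83%, so that 0, 0, 1, 1 and 1 of 8 members were called at X-rays, 5%, 15%, 25% and 83%. In the same fits 29.8% of the 15077 genes tested were called after X-rays, 23.1% after the 5% mixed field, 29.2% after 15%, 24.8% after 25% and 36.5% after 83% neutron. The median log2 difference of the 8 members was -0.07, -0.32, 0.55, 0.02 and 0.05, beside -0.11, -0.08, -0.02, -0.12 and -0.12 for all genes tested.

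**Figure D1:**
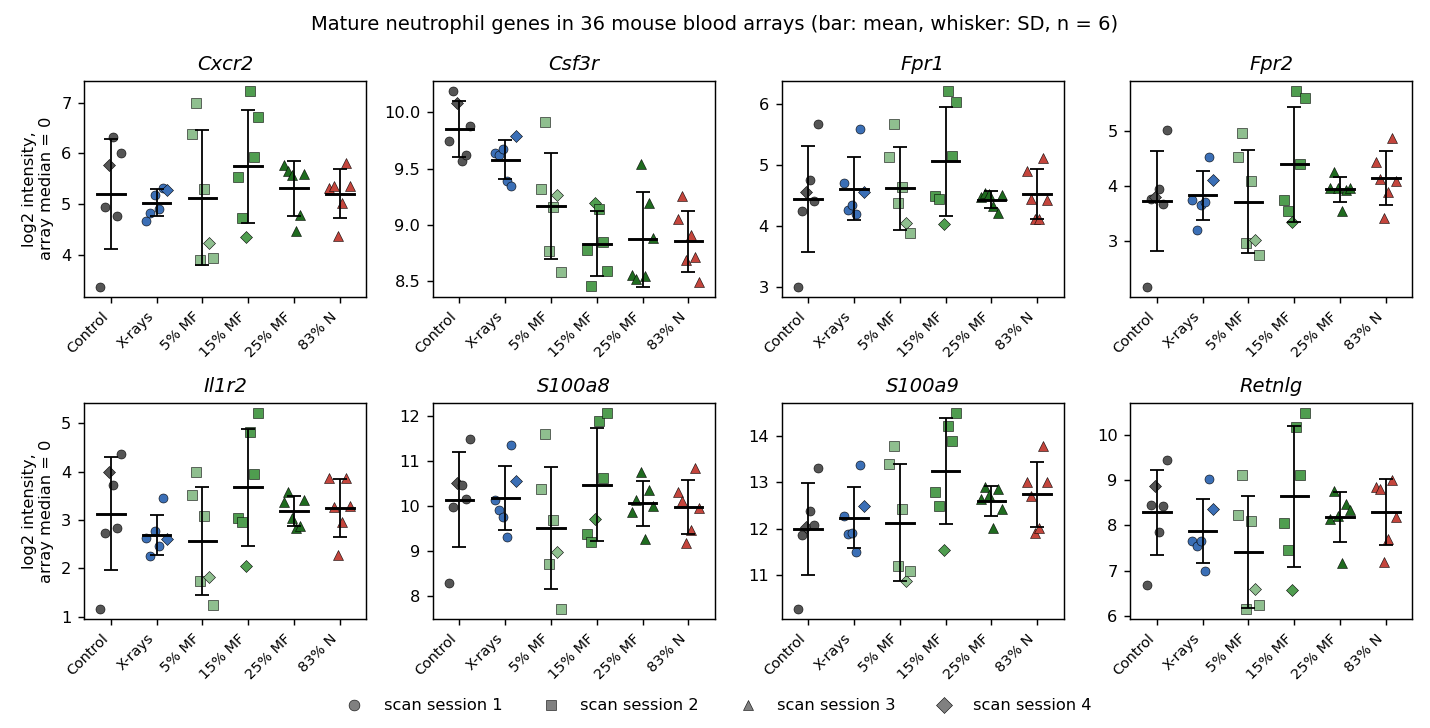
Log2 intensity of the 8 members (vertical axes, array median at 0) in each of 36 mice by group (MF, mixed field; N, neutron), with marker shapes for scan sessions, bars for means and whiskers for SD (n = 6). In 7 panels the controls span most of the range of the exposed mice, while in the Csf3r panel all 15% and 83% mice lie below all controls.

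Among the receptors, Cxcr2 was not called in any exposure. In controls its lowest, median and highest levels were 3.37, 5.35 and 6.32. After X-rays they were 4.67, 5.05 and 5.32, and after 83% neutron 4.37, 5.34 and 5.81. Every X-rays and 83% neutron mouse thus lay within the range of the controls. At 5% the levels ran from 3.90 through 4.76 to 7.00 and at 15% from 4.35 through 5.73 to 7.23, and 2 mice of each of these groups lay above all controls. At 25% they ran from 4.48 through 5.59 to 5.78, again inside the control range. The largest log2 difference was 0.55 at 15% (95% interval -0.66 to 1.76, limma adjusted p = 0.439).

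Fpr1 and Fpr2, the formyl peptide receptors, were not called in any exposure either. Fpr1 levels were 3.01, 4.48 and 5.69 (lowest, median, highest) in controls and 4.21, 4.499 and 4.55 at 25%, where the SD of 0.135 was the smallest of the 6 groups. Fpr2 levels were 2.18, 3.79 and 5.01 in controls and 3.56, 3.97 and 4.25 at 25%. All 25% mice lay near the middle of the control range for both genes. The log2 differences at 25% were -0.01 for Fpr1 (95% interval -0.73 to 0.72) and 0.21 for Fpr2 (-0.56 to 0.97). The largest, at 15%, were 0.62 for Fpr1 (-0.37 to 1.61, limma adjusted p = 0.283) and 0.66 for Fpr2 (-0.42 to 1.75, adjusted p = 0.295), and for both genes 2 of 6 mice at 15% lay above all controls. Fpr3, which follows Fpr2 on the chromosome and was the only other formyl peptide receptor tested, was not called in any exposure and was not well above background on any array of 4 of the 6 groups.

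The decoy receptor Il1r2 was at 1.16, 3.28 and 4.37 in controls (lowest, median, highest), at 2.27, 2.62 and 3.45 in X-rays mice and at 1.25, 2.45 and 4.01 at 5%. At 15% it was at 2.06, 3.50 and 5.22, with 2 mice above all controls. No group lay apart from the controls. Its log2 differences were -0.44 after X-rays (95% interval -1.42 to 0.54), -0.57 at 5% (-1.81 to 0.67), 0.54 at 15% (-0.76 to 1.84), 0.06 at 25% (-0.89 to 1.00) and 0.12 after 83% neutron (-0.91 to 1.15).

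S100a8 and S100a9, the calprotectin subunits, varied widely between mice and were not called. S100a8 was at 8.28, 10.31 and 11.49 in controls (lowest, median, highest), at 7.71, 9.33 and 11.59 at 5% and at 9.20, 10.16 and 12.07 at 15%. The 5% mice alone thus covered a 14.7-fold range. Log2 differences of S100a8 from controls ran from -0.63 at 5% (95% interval -1.95 to 0.69) to 0.33 at 15% (-0.94 to 1.61), with 0.03 after X-rays (-0.98 to 1.04). S100a9 was at 10.27, 12.06 and 13.30 in controls and at 11.54, 13.34 and 14.49 at 15%, where 3 of 6 mice lay above all controls. That difference, 1.25 on the log2 scale or 2.38-fold (95% interval 0.07 to 2.43), was the largest of any of the 7 members and was not called (limma adjusted p = 0.0737); without the arrays of session 4 it was 1.599 (adjusted p = 0.0306) and still not called. With scan session as a block, where only the 1 array of each group in session 4 set it, the difference turned to -0.49. In the other exposures S100a9 differed by 0.25 after X-rays, 0.14 at 5%, 0.60 at 25% and 0.75 after 83% neutron, all with intervals that held 0.

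Retnlg, the resistin-like member, was at 6.68, 8.43 and 9.44 in controls (lowest, median, highest), at 6.16, 7.35 and 9.12 at 5% and at 6.58, 8.58 and 10.47 at 15%. At 5% 3 of 6 mice lay below all controls, and at 15% 2 lay above and 1 below. Its log2 difference was -0.87 at 5% (95% interval -2.07 to 0.32, limma adjusted p = 0.218) and 0.01 after 83% neutron (-0.93 to 0.95). For all 7 members, a difference that missed the threshold does not show that the groups were alike.

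**Figure D2:**
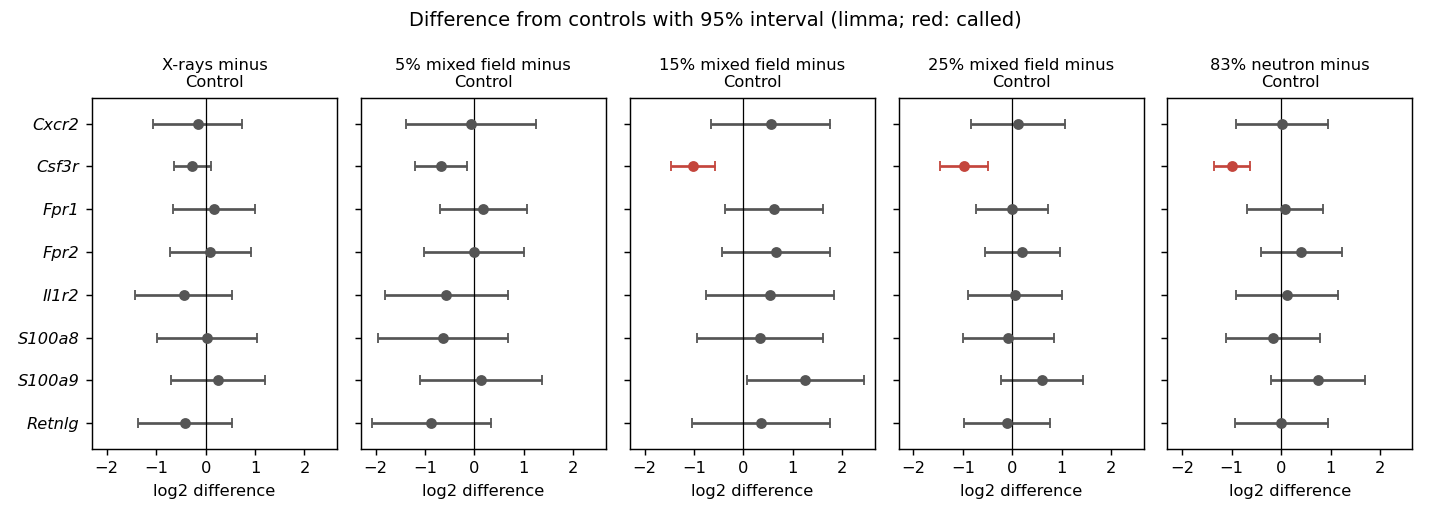
Log2 difference from controls (horizontal axes) of the 8 members (rows) in the 5 exposures (panels), with 95% intervals from limma, red where called. The 3 red points are the Csf3r probe at 15%, 25% and 83%, near -1.0, and the intervals of the other 7 members hold 0 except for S100a9 at 15%.

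The Csf3r probe behaved unlike the other 7. Its lowest, median and highest levels were 9.57, 9.81 and 10.19 in controls, 9.35, 9.63 and 9.79 after X-rays and 8.58, 9.21 and 9.91 at 5%. At 15% they were 8.46, 8.81 and 9.19, at 25% 8.52, 8.72 and 9.54 and at 83% 8.49, 8.81 and 9.25. All mice of the last 3 groups lay below all controls, and the X-rays and 5% mice overlapped them. By limma it was 2.02-fold lower at 15% (log2 difference -1.01, SE 0.21, adjusted p = 0.00115), 1.97-fold lower at 25% (-0.98, SE 0.23, adjusted p = 0.00305) and 1.99-fold lower after 83% neutron (-0.995, SE 0.16, adjusted p = 0.000198). The difference was -0.68 at 5% (SE 0.25, limma adjusted p = 0.0367, which misses the unadjusted threshold) and -0.27 after X-rays (SE 0.18, adjusted p = 0.199). With quantile normalization it was also called after X-rays (-0.74) and at 5% (-1.24), whereas scaling to the 75th percentile put X-rays at 0.07 and ended the calls at 15% and 25%. The call at 15% was lost with scan session as a block, where only the 1 array of each group in session 4 set the difference (-0.89, adjusted p = 0.395). At 25% it was lost in 9 of 12 fits that left out 1 array. Among these 9 was the fit without the Control array of session 4 (-0.93, limma adjusted p = 0.00796).

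Probes that share the repeat-like bases lay nearer to the Csf3r probe across mice than most probes did, but their group means did not all follow it. On the 36 arrays, with each probe centred on its own mean, the mean absolute log2 difference from the Csf3r probe had a median of 0.654 over 21483 probes past background. It was 0.275 for TC1653005, which ranked at place 199, and 0.285 for a Slc10a1 probe with 18 bases in common, at place 240. TC1653005 averaged 10.19 in controls, 10.7 after X-rays, 10.05 at 5%, 9.674 at 15%, 9.685 at 25% and 9.847 after 83% neutron. The Slc10a1 probe averaged 13.05, 13.31, 12.87, 12.69, 12.64 and 13.02 in the same groups. Among all genes tested, Mtif2 was the nearest, at 0.120. Its own log2 differences were -0.22 after X-rays, -0.68 at 5%, -1.22 at 15%, -1.03 at 25% and -1.11 after 83% neutron, the last 3 of them called by limma. Nearness was taken over all 6 groups, so differences like those of the Csf3r probe follow in part from the choice of this gene. The other 7 members were 0.621 (Fpr1) to 0.907 (S100a9) away from the Csf3r probe. This measure grows with a gene's own spread, so it cannot show whether they moved with the Csf3r probe. The places of the repeat-sharing probes carry the same limit, as a probe of small spread ranks near whether or not it moved with Csf3r. The pooled SD of the 7 members within groups was 0.64 (Fpr1) to 1.01 (Retnlg), against 0.33 for the Csf3r probe. Of 6 probes with at least 16 bases in common, 5 were past background, and the other 3 of these were farther off, at places 687 to 2480. In the same groups Gm1305 averaged 6.209, 5.309, 4.846, 4.161, 4.385 and 4.212. A probe without a gene name, with 17 bases in common, averaged 4.982, 3.937, 3.44, 2.627, 2.903 and 2.823. Gm2347 averaged 0.864, 1.403, 0.230, -0.121, -0.165 and 0.106. Gm1305 and the unnamed probe were thus lower than in controls in all 5 exposures, as the Csf3r probe was. TC1653005, Slc10a1 and Gm2347 were higher after X-rays.

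The extremes of the 7 other members often fell on the same mouse of a group. Control replicate 1 had the lowest level of its group for 7 of 7 members and control replicate 6 the highest for 6 of 7. X-rays replicate 5, 5% replicate 2 and 83% neutron replicate 5 were each highest for 7 of 7, and 83% neutron replicate 3 was lowest for 7 of 7. At 15% replicates 4 and 6 shared the highest values, at 3 and 4 of 7, and replicate 3, the array of session 4, was lowest for 6. At 25% replicate 2 was highest for 5 and replicate 4 lowest for 6. The lowest levels were split after X-rays, over replicates 4 (4 members), 2 (2) and 1 (1), and at 5%, over replicates 6 (4), 3 (2) and 5 (1). The Csf3r probe followed in some mice and not in others. In control replicate 1, where the 7 were lowest, it stood at 9.75, near the middle of its group. Where the 7 were highest, it was the lowest of its group in X-rays replicate 5 (9.35) and the highest in 5% replicate 2 (9.91).

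**Figure D3:**
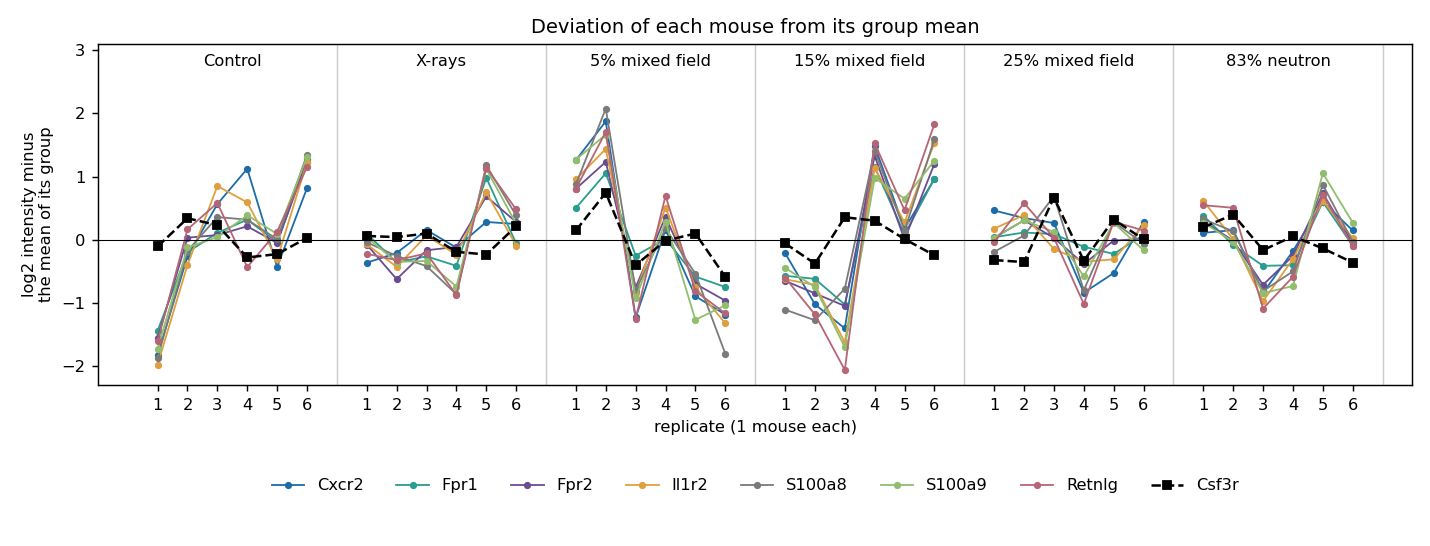
Log2 intensity minus the mean of its group (vertical axis) for each of 36 mice (horizontal axis, replicates within groups), with a coloured line for each of the 7 members and a dashed black line for the Csf3r probe. The coloured lines run close together in many mice, for example at control replicate 1 and 5% replicate 2. The black line departs from them in some mice, as at control replicate 1, and rises with them at 5% replicate 2.

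The size of this shared movement can be given by its SD. Within groups the pooled SD on the log2 scale was 0.64 for Fpr1, 0.74 for Fpr2, 0.88 for Il1r2, 0.89 for Cxcr2, 0.91 for S100a9, 0.97 for S100a8 and 1.01 for Retnlg, against a median of 0.58 over all genes tested. From 11.5% (Retnlg) to 39.0% (Fpr1) of genes had a larger SD. When any 2 of the 7 members were subtracted within an array, the pooled SD fell to between 0.22 (Fpr1 and Fpr2) and 0.53 (Fpr1 and Retnlg), with a median of 0.39 over 21 pairs. For the 7 pairs with the Csf3r probe, whose own SD was 0.33, it was 0.66 to 0.95. The spread was not equal in all groups: for Cxcr2 the SD was 1.08 in controls, 1.33 at 5% and 1.11 at 15%, but 0.27 after X-rays, 0.54 at 25% and 0.48 after 83% neutron. Whether these SDs differ was not tested.

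Subtracting one member from another within an array removes what the members share and so leaves narrower errors. S100a9 minus S100a8 was 1.85 ± 0.17 in controls (SD, n = 6), 2.07 ± 0.11 after X-rays, 2.61 ± 0.54 at 5%, 2.76 ± 0.65 at 15%, 2.53 ± 0.31 at 25% and 2.76 ± 0.21 after 83% neutron. After 83% neutron all 6 mice, at 2.53 to 3.07, lay above all controls, at 1.53 to 1.99, and in the other groups the ranges overlapped. Over 28 pairs in 5 exposures, 140 two-sided exact permutation tests were made, 50 had p below 0.05 and none passed after Benjamini-Hochberg adjustment (smallest adjusted p = 0.0505). The smallest p that 6 against 6 mice allow is 0.00216, so over 140 tests no pair could pass alone. The lack of a pass therefore does not show that no pair shifted. This smallest p was reached by 6 pairs, and S100a9 was in 5 of them. These were S100a9 against Il1r2 at 15% (difference from controls 0.71), against Fpr1 at 25% (0.61), against Fpr2 at 25% (0.40), against S100a8 after 83% neutron (0.92, taken as S100a9 minus S100a8) and against Fpr1 after 83% neutron (0.67). The sixth, S100a8 against Fpr2 after 83% neutron, was -0.58. Scaling an array to its median or a percentile leaves these differences as they are. They did change with quantile normalization, which alters the shape of each array's values. With it 8, 11, 12, 10 and 11 of 28 pairs passed after X-rays, 5%, 15%, 25% and 83%. The shift of S100a9 minus S100a8 after 83% neutron fell from 0.92 to 0.37.

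The shift between the calprotectin subunits also followed the scan session. In session 1 the difference S100a9 minus S100a8 averaged 1.91 in 5 controls and 2.10 in 5 X-rays mice. In session 2 it averaged 2.76 in 5 mice at 5% and 2.95 in 5 mice at 15%, and in session 3 2.53 at 25% and 2.76 after 83% neutron. In session 4, where 1 array of each of 4 groups was scanned together, it was 1.53 in the Control, 1.94 in the X-rays, 1.89 in the 5% and 1.84 in the 15% mouse. The 5% and 15% mice of session 4 thus lay below all their group mates of session 2, which were at 2.20 to 3.38 and 2.33 to 3.43. Within session 4 the differences from the Control array were 0.41, 0.35 and 0.31, and within session 1 X-rays mice were 0.18 above controls. The part of the session in the result was not tested.

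**Figure D4:**
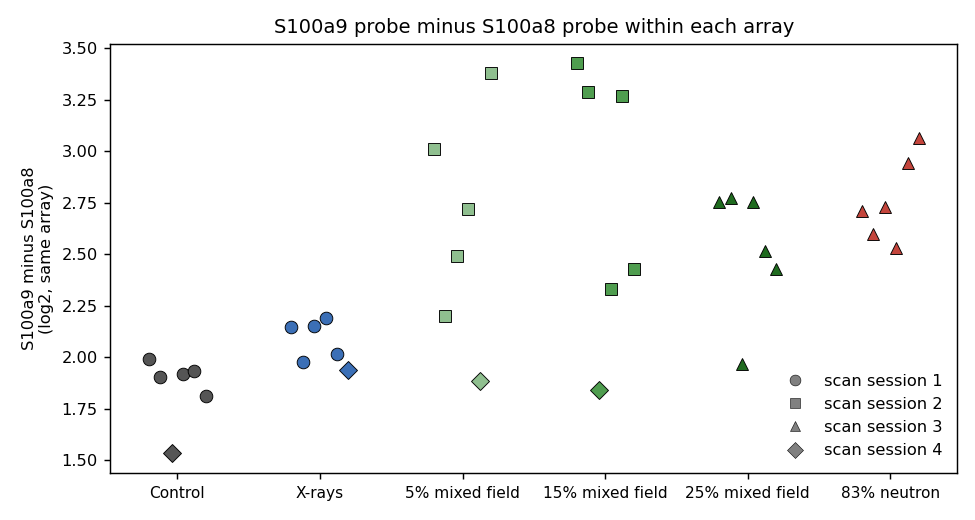
S100a9 minus S100a8 within each array (vertical axis, log2) by group (horizontal axis), with marker shapes for scan sessions. The diamonds of session 4 lie between 1.53 and 1.94 in all 4 groups that have one, below the squares of session 2.

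The neutron-containing fields were also compared with X-rays. All 25% and 83% arrays were scanned in session 3, and the X-rays arrays in sessions 1 and 4. Radiation quality therefore cannot be told apart from session in these 2 comparisons. At 83% it also cannot be told apart from dose, 0.75 Gy of neutrons against 3 Gy of x-rays. The 5% and 15% groups share only session 4 with X-rays. Against X-rays none of the 8 members was called at 5%, 15%, 25% or 83%, and none between 83% neutron and the 25% mixed field, which share the 0.75 Gy neutron dose. The shares of all genes called were 0% for 5%, 4.13% for 15%, 2.58% for 25% and 12.9% for 83% against X-rays, and 11.3% for 83% neutron against 25%. For 5% against X-rays limma called 0 genes, with 3503 at an unadjusted p below 0.05, while a model over all 36 arrays called 711, array weights 971 and the fit without session 4 189. The Csf3r probe was lower than after X-rays by 0.72 on the log2 scale at 83% (limma adjusted p = 0.0100), with no overlap, and was not called because its unadjusted p was above 0.001. Its log2 difference from X-rays was -0.74 at 15% (limma adjusted p = 0.0543), again with no overlap. At 25% it was -0.71 (limma adjusted p = 0.0869), and 5 of 6 mice lay below all X-rays mice. S100a9 differed from X-rays by 1.00 at 15% (95% interval -0.05 to 2.06) and Il1r2 by 0.98 (-0.04 to 2.01). In session 4, the only session that holds both groups, with 1 array of each, both turned, to -0.95 for S100a9 and -0.55 for Il1r2. Between 83% and 25%, all within session 3, the 7 members differed by -0.11 (Cxcr2) to 0.20 (Fpr2).

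The genes whose values ran most like those of the members over the 36 arrays were ranked by the mean absolute difference of centred log2 levels. For S100a8 the nearest was Mmp8, the neutrophil collagenase, at 0.227 against a median of 0.895 over 15076 genes. Scrg1 was the nearest to S100a9 (0.256) and to Retnlg (0.287). Fpr1 and Fpr2 were nearest to each other (0.215), followed for Fpr2 by Trem1, a receptor that amplifies inflammatory signals, at 0.223 and S100a11 at 0.223. Cxcr2 lay nearest to Cd300lf, an inhibitory receptor of myeloid cells (0.279), and Il1b, the interleukin-1 that Il1r2 binds (0.290), and Il1r2 to Fpr2 (0.261), Cxcr2 (0.295) and Il1b (0.301). The 3 nearest genes also included Ppp1r3d for Cxcr2 (0.292), AA467197 (0.299) and Mapk13 (0.323) for S100a8, Retn for S100a9 (0.295) and Pi16 for Fpr1 (0.275). Mmp8, Scrg1, Trem1, Cd300lf and Il1b were, like the 7 members, not called in any of the 5 exposures. As the ranking also took in differences between groups, this likeness follows in part from the choice of genes. For Mmp8 the log2 differences were 0.33, -0.36, 0.20, -0.09 and -0.27, and for Il1b -0.23, -0.23, 0.44, 0.18 and 0.08.

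Few other surface receptors of neutrophils were called. Of 33 listed, 28 were tested, and 1, 1, 2, 2 and 1 were called higher and 2, 1, 0, 1 and 1 lower after X-rays, 5%, 15%, 25% and 83%. Beside these counts and those of the lists below, 29.8%, 23.1%, 29.2%, 24.8% and 36.5% of all 15077 genes tested were called. Itgam, the alpha chain of the Mac-1 integrin, rose by 1.28 after X-rays, 2.86 at 15%, 1.93 at 25% and 3.25 after 83% neutron (limma adjusted p from 0.00181 to 1.47e-07), and was 2.01 higher but not called at 5%. C3ar1, the receptor for the complement fragment C3a, rose by 1.82 at 5%, 2.33 at 15% and 2.42 at 25%, although only 1 control array had it well above background. Cxcr4, which holds neutrophils in the marrow and is also borne by lymphocytes, was called lower after X-rays alone (-1.27). Among 14 other genes of mature neutrophils that were tested, 1, 2, 1, 1 and 1 were called, all higher, and Mxd1, a MYC antagonist, was called in 4 of the 5 exposures, with a log2 difference of 1.35 at 25% to 2.02 at 15%. After normexp background correction, here with an added offset of 50, Itgam kept its call at 15% (2.62) and lost the other 3. Mxd1 then kept none and was at -0.58 at 5% and -0.06 after 83% neutron.

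The granule genes are made earlier in neutrophil development. Of 9 secondary and tertiary granule genes tested, 3 were called higher in each of the 5 exposures, and these were Camp, Ngp and Ltf. Over all 15077 genes tested, 1938, 1359, 1898, 1640 and 2429 were called higher after X-rays, 5%, 15%, 25% and 83%. Camp, the cathelicidin precursor, was at 2.62 to 3.48 in controls, at 4.84 to 8.14 after X-rays, at 3.01 to 7.43 at 5%, at 4.88 to 7.89 at 15%, at 4.18 to 6.62 at 25% and at 3.80 to 4.30 after 83% neutron. Only the 5% mice overlapped the controls. Its log2 differences were 3.29, 2.78, 3.56, 2.35 and 1.05 (limma adjusted p from 7.23e-05 to 0.00246). Ngp, the neutrophilic granule protein, differed by 4.62, 4.51, 5.49, 3.96 and 2.16 and Ltf, lactoferrin, by 4.35, 4.03, 5.23, 3.83 and 2.26, but each was well above background on only 1 of 6 control arrays, so that both passed the filter through the exposed groups. Among 3 primary granule genes tested, Elane, neutrophil elastase, was called higher after X-rays, 15% (3.57), 25% (1.75) and 83% (2.20). Lcn2, the secondary granule gene with the next largest differences, was not called (0.33 to 1.56). All 15 calls held under scaling to the 75th percentile, to the median of probes above background on all arrays and under quantile normalization, and 13 held in the deposited table, where Ngp and Ltf after 83% neutron did not. After normexp background correction, which moved the median log2 difference of all genes to -0.78, -1.21, -0.18, -0.56 and -1.19, 4 of the 15 held and Camp after 83% neutron was at -0.18.

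**Figure D5:**
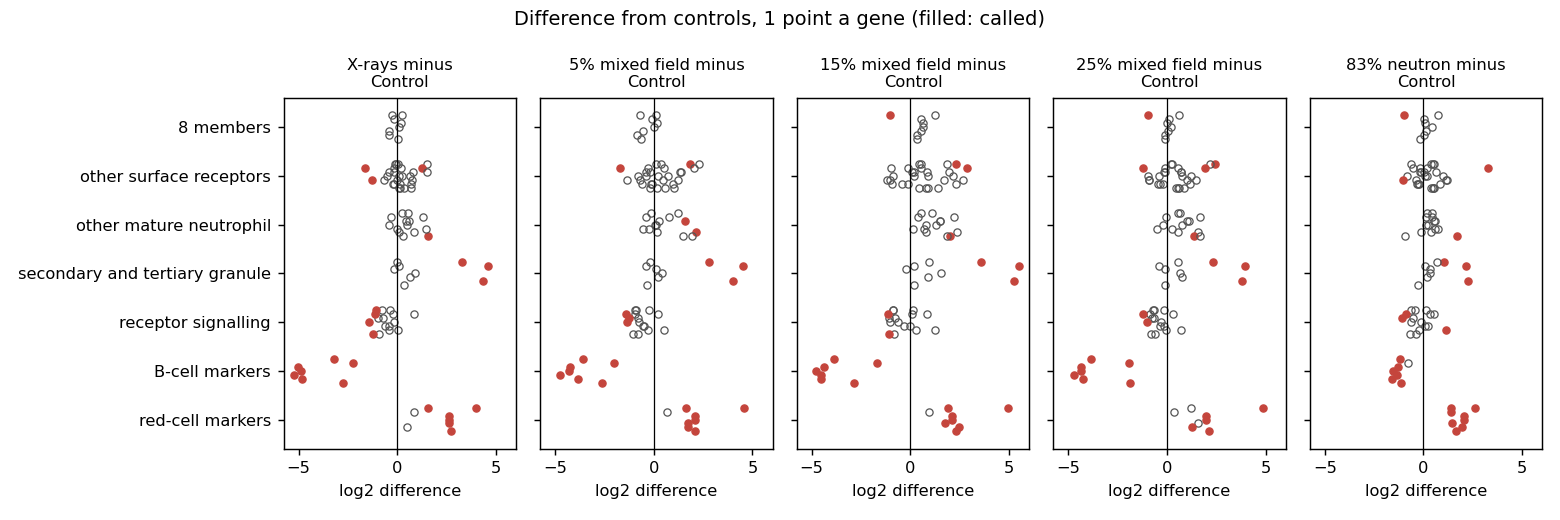
Log2 difference from controls (horizontal axes) of each gene tested in 7 lists (rows) for the 5 exposures (panels), filled red where called and open where not. The 7 members other than Csf3r lie at most 1.25 from 0, while 3 granule genes, most red-cell markers on the right and the B-cell markers on the left lie far from it.

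The ligands, partners and signalling genes of the members were taken from lists as well. Of 11 ligand genes 5 were tested and 6 were below background, and Pf4, a platelet chemokine that is also on the platelet list, was called higher at 15% (1.96), 25% (1.59) and 83% (1.11). Of 16 signalling genes tested, 0, 0, 0, 0 and 1 were called higher and 4, 3, 2, 2 and 2 lower, with Vav1, a guanine nucleotide exchange factor of blood cells, lower in all 5 exposures (-1.12, -1.42, -1.14, -1.20 and -0.87). Grk6, a kinase that desensitises chemokine receptors, was called lower after X-rays (-1.44), 5% (-1.35) and 25% (-1.03). Of the 3 NADPH oxidase genes tested, Ncf1 was called lower at 5%, 25% and 83% (-1.66, -1.29 and -0.94). Bsg, 1 of 3 receptors of calprotectin tested and also a membrane protein of red-cell precursors, rose in all 5 (2.06, 1.80, 1.77, 1.79 and 1.32). Of 7 other S100 genes tested, S100a13 was called higher after X-rays (1.08) and 83% neutron (0.81) and S100a16 lower after 83% (-0.95). The other resistin-like genes tested, Retn and Retnla, were not called, and of 8 granulocyte transcription factors only Runx1 was, lower after 83% neutron (-0.91). After normexp correction Pf4 at 15% alone of these named calls held, and the sign turned for Bsg at 5% (-0.26) and 83% (-0.40), for Pf4 at 83% (-0.61) and for S100a13 at 83% (-0.83).

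Markers of other blood cells changed beside the members, and every level is relative to the median of its array. All 7 B-cell markers were called lower after X-rays, 5%, 15% and 25%, and 6 of 7 after 83% neutron. Their mean level ran from 6.99 to 7.76 in controls, from 2.22 to 5.02 in the x-ray and mixed field groups and from 5.91 to 6.42 after 83% neutron. Of 7 red-cell markers 5, 6, 6, 4 and 7 were called higher, with mean levels of 7.65 to 8.46 in controls and 9.05 to 11.02 in the exposed mice, though after normexp correction 5 of these 28 calls held and 8 changed sign. None of 10 monocyte markers tested was called after X-rays, 5%, 15% or 25%, and 3 rose after 83% neutron: Cx3cr1 (1.30), Csf1r (0.82) and Ace (0.93), all 3 of which changed sign after normexp correction. Of 9 platelet markers 0, 0, 3, 4 and 1 were called higher, with 1 of these 8 calls held and 1 turned after normexp correction. Of 4 basophil and mast cell markers tested 1, 2, 1, 1 and 1 were called higher, and of 5 eosinophil markers 1 was called lower in each exposure and 1 higher at 25%. No NK-cell marker was called, and 1, 2, 2, 1 and 1 of 7 T-cell markers were lower. The part of these shifts in the members' values was not tested.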

How the data were processed

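Each sample is the blood RNA of 1 mouse on an Agilent Mouse 4x44K v2 array with 1 colour. The deposited scanner files hold intensities from Agilent Feature Extraction 12.0.2 (version per the labels), background-subtracted by the authors' software, and 1 deposited table holds the authors' log2 values, described in the methods as median-normalized, though the medians of its columns ran from 6.28 to 6.99, and used as an alternative only.

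Log2 processed intensities were averaged over spots of a probe without non-uniform spots and centred on each array's median. Probes above background on more than 75% of arrays and at least 1.5-fold from their own median on at least 20% were kept, with the brightest probe per gene. Each comparison was fitted by limma 3.58.1 (R 4.3.3) on its 12 arrays, and a gene was called at p below 0.001 and Benjamini-Hochberg adjusted p below 0.05. Fits were tested on simulated data. Intervals cover 95%, and p-values measure the spread between mice of 1 group, whose number limits the precision. The members and gene lists were chosen with earlier results of these data known. Besides the members, the 4 genes of each list with the largest mean absolute log2 difference over the 5 exposures and the 3 genes nearest to each member were eligible to be named, and not all of them are reported here. Other genes named, among them Cxcr4, Ace and Slc10a1, were chosen after their values were seen. Alternatives covered scaling, background, filters, blocks, array weights, the methods' random variance test and leaving out each array.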

Additional observations from a re-analysis of the deposited data

Results flagged for a closer look

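Of 48 tests of a member in a group for an outlying mouse, 1 was past the 95% critical value for 6 mice: Fpr1 in X-rays replicate 5, whose gap to the next mouse was 0.634 of the range of its group. This mouse was highest of its group for 7 of the 7 members other than Csf3r. About 1 in 20 such tests is past the value by chance.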

How the results depend on the processing

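None of Cxcr2, Fpr1, Fpr2, Il1r2, S100a8, S100a9 and Retnlg was called in any comparison under any alternative, and no called value of a member changed sign. Uncalled differences of the 8 members changed sign in 164 of 1302 alternatives and in 108 of 960 fits without 1 array. Every change in the count of members called was the Csf3r probe. The count rose from 0 to 1 after X-rays and at 5% with quantile normalization and with the deposited table, and at 5% with the adjusted p alone. It fell from 1 to 0 at 15% and 25% with the 75th percentile, normexp and the replicate block, at 15% also with slide or scan session as a block, at 25% also with the median of probes above background and, in a fit added after the data were seen, without scan session 4, and at 83% with normexp. Against X-rays it rose from 0 to 1 with array weights at 15%, 25% and 83%, and at 83% with the 75th percentile, the median of probes above background, the background filter on all arrays, no fold filter and the adjusted p alone. The cause was not tested. Without 1 array the count stayed at 1 at 15% and 83%, ran from 0 to 1 at 25% and for 83% against X-rays, and stayed at 0 elsewhere. The replicate numbers did not pair the mice: residuals of mice with the same number had a mean r of 0.037 and of mice with other numbers -0.0063, and the block changed no other call. Of the within-array differences between 2 members, 8, 11, 12, 10 and 11 of 28 passed after X-rays, 5%, 15%, 25% and 83% with quantile normalization, of which 0, 1, 4, 4 and 3 had the Csf3r probe, against 0 in the values as centred. S100a9 minus S100a8 then differed from controls by -0.12 after X-rays and by 0.57, 0.52, 0.53 and 0.37 in the others. Without 1 array 0 to 2, 0 to 3, 0 to 3, 0 to 4 and 0 to 4 pairs passed. Scaling to the 75th percentile moved the median difference of all genes by more than 0.1, to 0.44, 0.19, 0.30, 0.11 and 0.29. The members lay well above background on all arrays, but the normexp setting still moved them. It joined a background correction with an added offset of 50, while raw median intensities of the arrays ran from 6.804 to 39.41. The separate parts of offset and correction were not tested. With normexp the S100a9 difference after 83% neutron went from 0.75 to -0.97. That of S100a8 went from -0.17 to -1.89 and that of Retnlg from 0.01 to -1.65. The median of all genes moved to -1.19.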
